A study of Mus musculus with 6 samples.

Results

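Light reaches the circadian clock of the suprachiasmatic nucleus through nerve fibres from the retina, and 10 genes with roles in that input or in the clock's response to it were read in the hypothalamus of obese mice given GSK-J4 or vehicle. They are Adcyap1, Adcyap1r1, Nos1, Nos1ap, Prkg1, Prkg2, Ryr1, Ryr2, Ryr3 and Mtnr1a. All probes that carry one of these names on the array were taken, which gave 29 of 56605 probes, under 10 of 37074 gene names. Of the 29 probes, 21 were kept for testing, because every array of 1 group or the other, 3 in each, showed them well above background, and 34444 probes of the array met the same condition. There were 18 member probes above background on all 6 arrays and 6 on none. The other 3 kept probes, Ryr3 A_51_P519354, Ryr2 A_52_P10205 and Adcyap1 A_66_P128698, were kept through the vehicle arrays alone, so their selection favours a lower value under GSK-J4. The signals are the deposited log2 values, 1 unit of which is a doubling, and each difference is GSK-J4 minus vehicle.

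The mice were male C57BL/6J animals with diet-induced obesity (DIO), kept on a diet with 60 kcal% fat under 12 h of light a day. GSK-J4 is an inhibitor of the H3K27 demethylase Kdm6a and its relatives, and was given at 30 mg kg-1 to the treated group. The vehicle group received a dose of 0, and both groups were sampled on day 4, in the middle of the light phase. Each group held 3 arrays, each from a different mouse. The compound reaches the whole animal, so the arrays do not separate an effect within the hypothalamus from one elsewhere.

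In the suprachiasmatic nucleus, retinal terminals release glutamate together with PACAP, the peptide encoded by Adcyap1. PACAP acts on the receptor encoded by Adcyap1r1, which raises cyclic AMP. Glutamate lets calcium in, and the neuronal nitric oxide synthase Nos1, which the adaptor Nos1ap binds, then makes nitric oxide. Nitric oxide raises cyclic GMP, which activates the protein kinases Prkg1 and Prkg2. Ryanodine receptors (Ryr1, Ryr2 and Ryr3) release calcium from the endoplasmic reticulum, and have been placed in the response to light early in the night. Mtnr1a is a melatonin receptor, through which the hormone of the night acts on the clock and on the pars tuberalis of the pituitary. Most of these genes are also used in the brain outside the clock.

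Most of the probes on which the results turn are shown first. Each line gives the opening 30 bases of a 60-base probe, 5′ to 3′, or the whole probe where it crosses an exon junction, as the array files hold it. Capitals mark G and C, because the difference between the groups moved with the GC content of a probe over the whole array.
Ryr3 A_52_P328350: tGttCaaCtCatGttaCCttCGatCtaatt
Ryr3 A_52_P261858: aCCCCGCtGGtGaCCCttatGaaatGtatC
Ryr3 A_51_P519354: tCtCaaaCGCtattGGtataCGGaaGaata
Ryr1 A_51_P256401: CGCCtaCtCCCtaGtGCataCtCtCtCtCt
Ryr1 A_52_P391110, whole: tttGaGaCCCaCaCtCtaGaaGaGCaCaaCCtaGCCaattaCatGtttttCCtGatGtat
Nos1 A_55_P2133795: aCCaaCCGCCttaGatCtGaGtCCatCGCC
Nos1 A_55_P2073915: tCtaCaCatGCGtGCtGaCCttaCCtGtGa
Nos1ap A_55_P2731176: tttttCaCatGtatGaCaGataaatGtCCG
Nos1ap A_51_P517721, whole: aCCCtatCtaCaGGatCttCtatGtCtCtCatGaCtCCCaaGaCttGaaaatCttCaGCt
Adcyap1r1 A_52_P615225: tCCtaCatGCCatCttCaGCCtGGaCtCaa

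The array files place these probes on mouse build mm9. On the minus strand, the Ryr3 probes lie at chr2:112471931-112471990, chr2:112476718-112476777 and chr2:112806547-112806606. The Ryr1 probes lie at chr7:29807633-29807692 and, over a junction, chr7:29788789-29789487, also on the minus strand. On the plus strand, the Nos1 probes lie at chr5:118402831-118402890 and chr5:118404306-118404365, and that of Adcyap1r1 at chr6:55448171-55448230. The minus strand holds the Nos1ap probes at chr1:172303055-172303114 and, over a junction, chr1:172279588-172305391. Whether a probe lies in coding sequence or in a UTR was not read here, since no genome annotation of this build was used.

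The arrays differed between the groups in ways that touch every value. Vehicle arrays had a 75th percentile of spot intensity of 788 to 916 and GSK-J4 arrays 407 to 461, with 62.8% to 63.6% of probes above background against 57.7% to 58.7%. The vehicle arrays were on slide 1 and scan 1 and the GSK-J4 arrays on slide 2 and scan 2, so slide and treatment cannot be told apart. Vehicle replicate 1 held far more choroid plexus signal than the other arrays (Ttr 16.15 against 10.42 to 13.24), and in GSK-J4 replicate 3 the smooth muscle gene Acta2 was at 8.45 against 12.64 to 13.10. Of 10 hypothalamic marker genes only 3 were above background on all 6 arrays and 3 (Nkx2-1, Otp and Sim1) on none, whereas all 5 markers of cortex and hippocampus were above background on every array, with Neurod2 at 13.52 to 13.85. Of 6 markers of the suprachiasmatic nucleus, 4 were above background on all 6 arrays and Six6 was on none. Vip read 9.43 to 10.11 and Rgs16 9.48 to 10.83, whereas Nms read 4.96 to 5.83 and Lhx1 4.79 to 5.89. Which tissue these signals came from was not tested.

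Both Ryr3 probes that were above background on all arrays and 1 of 4 Nos1ap probes were lower under GSK-J4, and both Nos1 probes and 1 of 2 Adcyap1r1 probes were higher. By limma, adjusted over all 34444 kept probes, 3 member probes were past an adjusted p of 0.05 higher and 4 lower, and 1 of the 4 was Ryr3 A_51_P519354, kept through the vehicle arrays alone and read here as a description. When testing was limited to probes above background on all 6 arrays, 5 were higher and 3 lower, with Prkg2 and 1 Ryr1 probe added (adjusted p = 0.044 each, limma) and that Ryr3 probe gone. Over the array that narrower filter gave 3351 probes higher and 2797 lower. Over the 34444 probes of the main filter the share called was 16.8%, with 8.39% higher and 8.42% lower. At the thresholds of the methods, 1.5-fold and an unadjusted p of 0.05, there were again 3 member probes higher and 4 lower, the dim Ryr3 probe included, against 12.6% of all kept probes, 4.79% higher and 7.86% lower. At those thresholds Prkg2 and 1 Ryr1 probe stood in the place of Adcyap1r1 and the other Nos1 probe. The groups did not overlap for 10 of the 21 kept probes, and for 45.6% of all kept probes. The median difference was -0.03 over the 21 probes and 0.02 over all kept probes, and the members ranged from -1.49 to 1.18. The arrays read whole tissue, in which fewer cells of a type and less RNA per cell cannot be told apart.

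**Figure D1:**
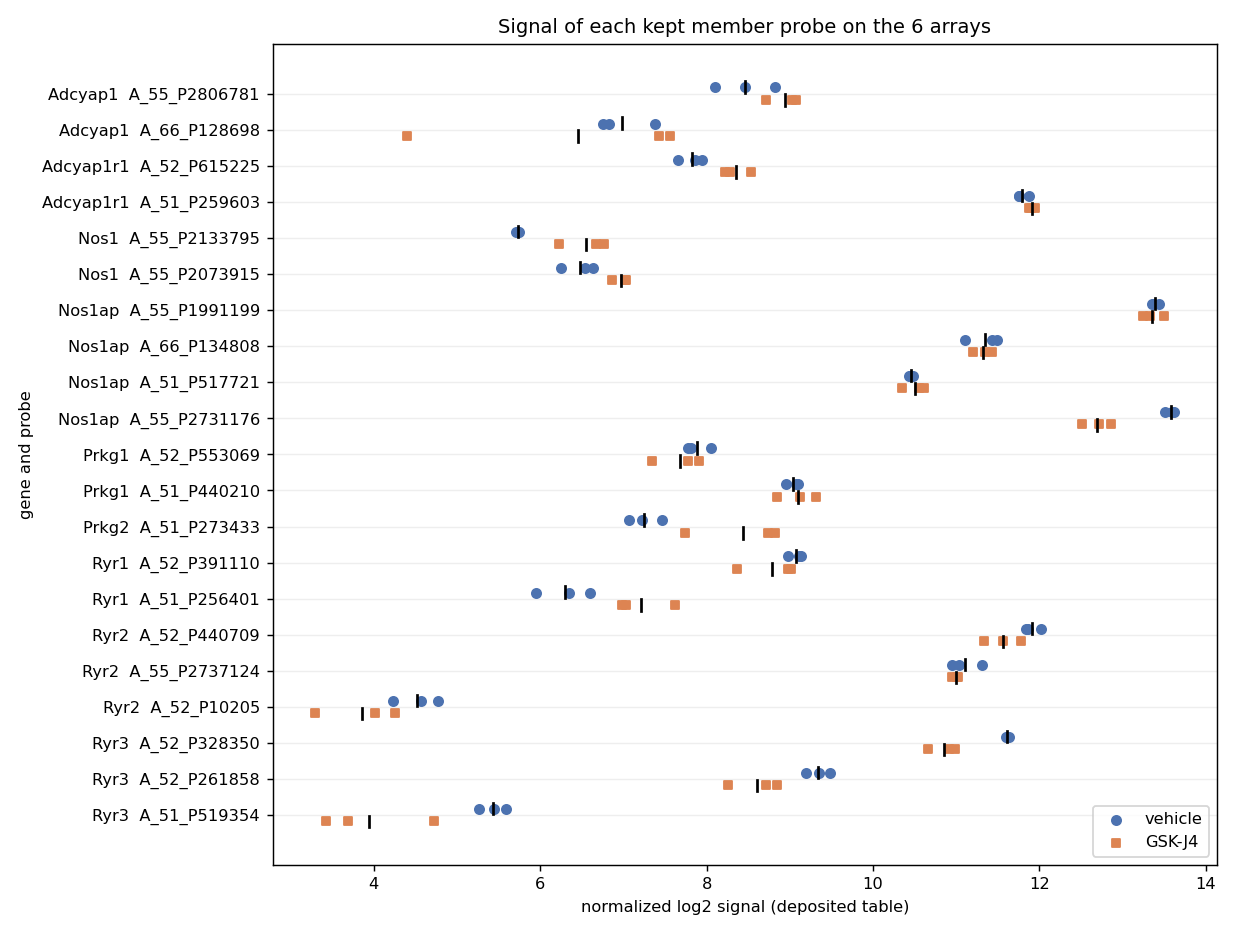
Normalized log2 signal (horizontal axis) of each of the 21 kept member probes (vertical axis), with 1 point an array: blue circles for the 3 vehicle arrays, orange squares for the 3 GSK-J4 arrays, and a black bar for the mean of each group. The Ryr3 squares lie to the left of the circles, on A_51_P519354 at background, and the Nos1 squares to the right on both. Of the 4 Nos1ap probes only A_55_P2731176 shows separate groups, and the square of Adcyap1 A_66_P128698 at 4.39 stands apart from the other arrays.

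Ryr3, the ryanodine receptor best known from brain and smooth muscle, was lower on both of its brighter probes. On A_52_P328350 the vehicle arrays read 11.60, 11.61 and 11.64 and the GSK-J4 arrays 10.66, 10.91 and 10.99. All treated arrays lay below all vehicle arrays, which spanned far less than the gap. The difference was -0.76 ± 0.10 (SE, n = 3 and 3; adjusted p = 0.017, limma), a 1.69-fold fall. On A_52_P261858, placed 4.79 kb further from the 3′ end, the vehicle arrays read 9.19, 9.35 and 9.48 and the GSK-J4 arrays 8.26, 8.84 and 8.71. Again the groups were apart, with a difference of -0.74 ± 0.17 (adjusted p = 0.042, limma). The within-array difference between these probes shifted by 0.03 between the groups (exact permutation p = 0.9, two-sided), so no unequal response of the pair was detected.

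The third Ryr3 probe, A_51_P519354, lies 335 kb upstream of the first, under a transcript record of its own (ENSMUST00000156757). Its vehicle arrays read 5.45, 5.26 and 5.59 and were all above background. Its GSK-J4 arrays read 3.69, 4.72 and 3.42 and were not well above background. Only a bound can therefore be given, at least 1.87-fold lower under GSK-J4. Since the probe was kept through the vehicle arrays alone, it had to read lower under GSK-J4, and its adjusted p of 0.040 (limma) adds nothing to the other 2 probes. With background corrected by normexp the fitted difference was -0.43 in place of -1.49. The 2 brighter Ryr3 probes each gave an exact permutation p of 0.1, the smallest that 3 arrays against 3 allow.

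Ryr2, the ryanodine receptor of the heart and of most neurons, was not called on any of its 3 probes. On A_52_P440709 the vehicle arrays read 11.87, 12.02 and 11.84 and the GSK-J4 arrays 11.33, 11.78 and 11.57. The groups did not overlap, but the difference of -0.35 ± 0.13 missed the threshold (adjusted p = 0.120, limma). A_55_P2737124 gave -0.11 ± 0.11 (adjusted p = 0.509, limma). The dim probe A_52_P10205 was above background on the 3 vehicle arrays only and was kept through them, with a bound of at least 1.02-fold lower (adjusted p = 0.145, limma). Whether Ryr2 and Ryr3 differ in their response was not tested.

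The Ryr1 probes, for the ryanodine receptor of skeletal muscle, went opposite ways and neither was called. On A_51_P256401 the vehicle arrays read 5.96, 6.60 and 6.35 and the GSK-J4 arrays 7.62, 6.99 and 7.03. The treated arrays were all higher, by 0.91 ± 0.24 (1.88-fold; adjusted p = 0.052, limma). On A_52_P391110, the probe over an exon junction 18.5 kb nearer the 3′ end, the vehicle arrays read 9.14, 9.11 and 8.97 and the GSK-J4 arrays 8.36, 9.01 and 8.98. These groups overlapped, with a difference of -0.29 ± 0.19 (adjusted p = 0.325, limma), and most of it came from GSK-J4 replicate 1, without which it was -0.07. The within-array difference of the pair shifted by 1.20 between the groups with no overlap (exact permutation p = 0.1, the smallest possible). The higher probe has a GC content of 53.3% and is listed under the cDNA record AK042482, while the lower has 40% and is listed under NM_009109. The third Ryr1 probe was above background on no array. Of 4 kept skeletal muscle markers 2 were called higher, Tnnt3 and Mylpf, on dim probes (vehicle means of 5.13 and 5.14) of 60% and 51.7% GC. Myh4, on a probe of 38.3% GC, was not called and its groups overlapped (0.53 ± 0.30, adjusted p = 0.255, limma). The summed signal of the 4 was 459 to 513 on vehicle and 587 to 803 on GSK-J4 arrays. Most of it was Acta1, which was not called (adjusted p = 0.069, limma), on a probe of 55% GC. Ckm was above background on no array. The part of these markers in the Ryr1 values was not tested.

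**Figure D2:**
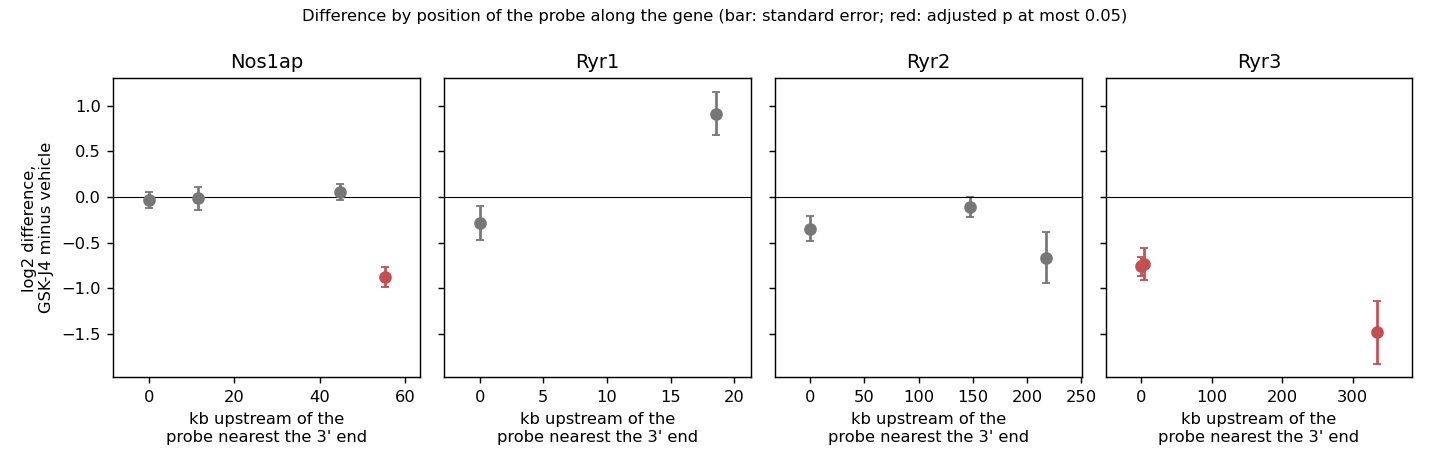
Log2 difference, GSK-J4 minus vehicle (vertical axis), of the kept probes of Nos1ap, Ryr1, Ryr2 and Ryr3 against their distance in kb upstream of the kept probe nearest the 3′ end (horizontal axis). Bars are standard errors from limma, and red points are probes called at an adjusted p of 0.05. The Ryr3 points lie below 0, the farthest upstream being the probe at background on the GSK-J4 arrays, the Ryr1 points lie on opposite sides of 0, and the Nos1ap point 55.3 kb from the 3′-most probe lies alone near -0.88.

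Nos1, the neuronal nitric oxide synthase, was higher on both of its probes. On A_55_P2133795 the vehicle arrays read 5.75, 5.71 and 5.73 and the GSK-J4 arrays 6.76, 6.67 and 6.23. All treated arrays were above all vehicle arrays, by 0.82 ± 0.15 (1.77-fold; adjusted p = 0.025, limma). On A_55_P2073915 the vehicle arrays read 6.25, 6.54 and 6.64 and the GSK-J4 arrays 7.04, 7.02 and 6.86. The groups were again apart, by 0.49 ± 0.12 (adjusted p = 0.047, limma). This probe has a GC content of 55%, the other 45%. With the trend on GC content taken out of each array the difference fell to 0.23 on A_55_P2073915 (adjusted p = 0.275, limma) and was 0.75 on A_55_P2133795 (adjusted p = 0.041, limma). With background corrected by normexp the differences were smaller, 0.49 on A_55_P2133795 (adjusted p = 0.018, limma) and 0.29 on A_55_P2073915 (adjusted p = 0.049, limma). Between the probes the response did not differ beyond the arrays' spread (shift 0.33, exact permutation p = 0.2). The summed signal of the 4 kept hypothalamic markers also rose, from 342 to 374 on vehicle to 493 to 713 on GSK-J4 arrays. Most of that sum was Pomc, higher by 0.85 ± 0.14 (adjusted p = 0.022, limma) on a probe of 55% GC. Pomc was the only 1 of the 4 called. Hcrt read 0.81 ± 0.22 (adjusted p = 0.059, limma), while Agrp (0.10 ± 0.26) and Oxt (0.09 ± 0.40) differed little. For the 5 kept suprachiasmatic markers the sum was 1539 to 2322 on vehicle and 1808 to 3066 on GSK-J4 arrays, which overlapped. The part of these markers in the higher values of Nos1, Adcyap1r1 and Prkg2 was not tested.

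Nos1ap, whose product ties Nos1 to other partners in neurons, changed on 1 of its 4 probes. On A_55_P2731176 the vehicle arrays read 13.62, 13.52 and 13.59 and the GSK-J4 arrays 12.51, 12.87 and 12.72. The treated arrays were all lower, by -0.88 ± 0.11 (1.84-fold; adjusted p = 0.015, limma). On the other 3 probes the differences were -0.03 ± 0.09 (A_55_P1991199), -0.02 ± 0.13 (A_66_P134808) and 0.05 ± 0.09 (A_51_P517721), with adjusted p-values of 0.822, 0.939 and 0.693 (limma). On A_55_P1991199 the vehicle arrays read 13.35, 13.44 and 13.38 and the GSK-J4 arrays 13.24, 13.50 and 13.33, so these groups overlapped.

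The within-array difference between A_55_P2731176 and each of the other Nos1ap probes shifted by 0.93, 0.85 and 0.86, each with no overlap between groups and an exact permutation p of 0.1. Under the alternatives run, these shifts stayed between 0.68 and 1.01. By the coordinates of the files, A_55_P2731176 lies inside the stretch of 25804 bases from end to end of the junction probe A_51_P517721, in sequence that a transcript joined as that probe reads leaves out. A_55_P2731176 is listed under the transcript ENSMUST00000159665, while A_51_P517721 and A_66_P134808 are listed under NM_027528. A_55_P1991199 has the same GC content, 45%, as the probe that fell.

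Of the kinases activated by cyclic GMP, Prkg2 had the greatest positive difference among the kept member probes but missed the adjusted threshold. On A_51_P273433 the vehicle arrays read 7.07, 7.22 and 7.46 and the GSK-J4 arrays 8.74, 7.74 and 8.82. All treated arrays were higher, with GSK-J4 replicate 2 nearest the vehicle arrays, and the difference was 1.18 ± 0.31 (2.27-fold; adjusted p = 0.052, limma). Without GSK-J4 replicate 2 it was 1.53 (adjusted p = 0.015, limma). The other Prkg2 probe, A_52_P466615, was above background on 2 arrays of each group and was not tested. It read 4.44, 3.79 and 4.23 on vehicle arrays and 5.10, 4.14 and 5.30 on GSK-J4 arrays, which overlapped.

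Prkg1, the kinase of this pair found in many neurons and in smooth muscle, showed no called difference on its 2 kept probes. On A_51_P440210 the vehicle arrays read 8.96, 9.09 and 9.07 and the GSK-J4 arrays 8.85, 9.31 and 9.13, a difference of 0.06 ± 0.13 (adjusted p = 0.783, limma). A_52_P553069 gave -0.21 ± 0.17 (adjusted p = 0.415, limma). Of the 3 other Prkg1 probes, 2 were above background on no array and A_55_P2719554 on 1 vehicle array, so these were not tested.

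**Figure D3:**
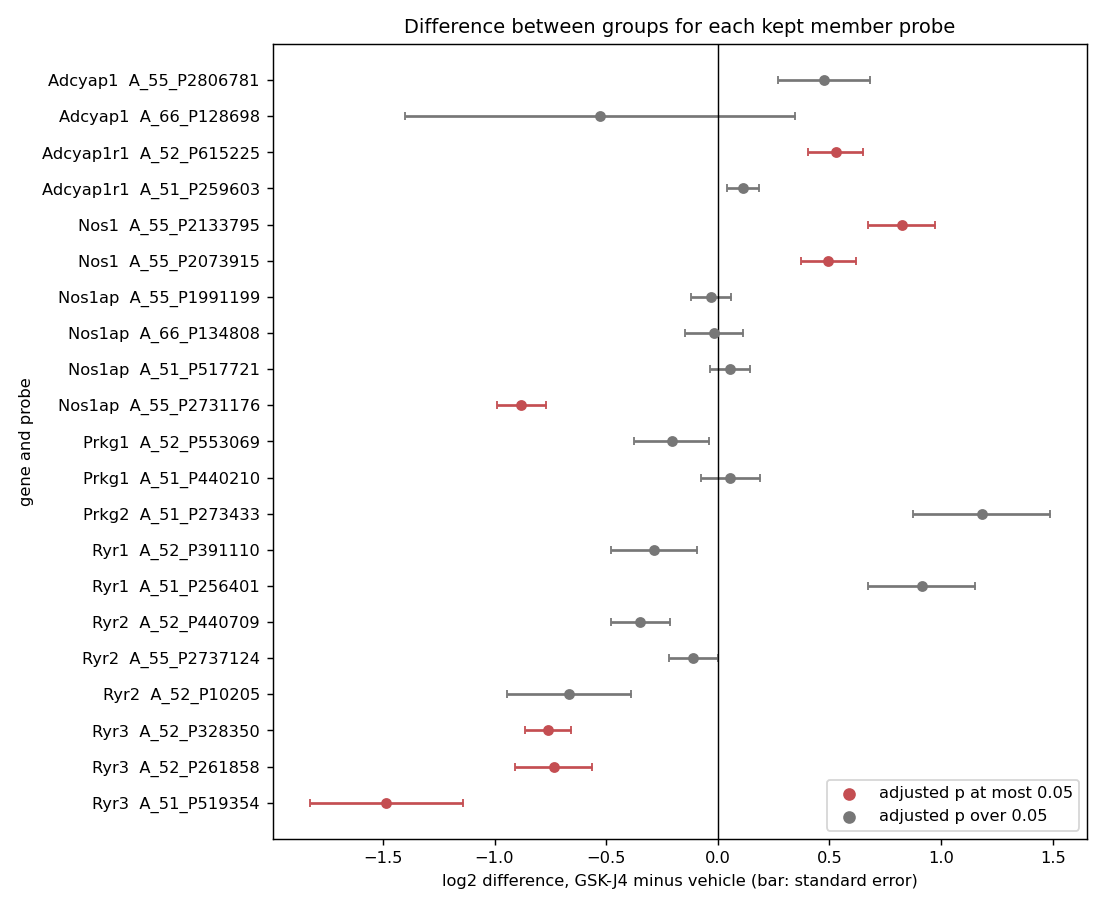
Log2 difference, GSK-J4 minus vehicle (horizontal axis), with its standard error from limma (n = 3 arrays and 3 arrays), for the 21 kept member probes (vertical axis); red marks probes called at an adjusted p of 0.05. The 7 red probes belong to Adcyap1r1, Nos1, Nos1ap and Ryr3, and the lowest, Ryr3 A_51_P519354, has only a bound. Prkg2 at 1.18 and Ryr1 A_51_P256401 at 0.91 are grey, and the error bar of Adcyap1 A_66_P128698 crosses 0.

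Adcyap1, which encodes PACAP and is strong in the ventromedial hypothalamus as well as in retinal input cells, was not called. On A_55_P2806781 the vehicle arrays read 8.46, 8.10 and 8.82 and the GSK-J4 arrays 9.07, 8.71 and 9.03. The groups overlapped, with a difference of 0.48 ± 0.21 (adjusted p = 0.156, limma). On A_66_P128698 the vehicle arrays read 6.82, 6.75 and 7.38 and the GSK-J4 arrays 7.56, 7.42 and 4.39. GSK-J4 replicate 3 was not above background there and set the value of -0.53 ± 0.87 (adjusted p = 0.691, limma), which became 0.50 without it (adjusted p = 0.169, limma). Of 5 markers of the ventromedial nucleus 2 were above background on all arrays and none was called.

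The PACAP receptor Adcyap1r1 rose on 1 of its 2 probes. On A_52_P615225 the vehicle arrays read 7.66, 7.95 and 7.86 and the GSK-J4 arrays 8.53, 8.23 and 8.29. The groups were apart by 0.53 ± 0.12 (1.44-fold; adjusted p = 0.040, limma). On A_51_P259603, 2.66 kb nearer the 3′ end, the vehicle arrays read 11.75, 11.87 and 11.75 and the GSK-J4 arrays 11.95, 11.87 and 11.90. These overlapped, with a difference of 0.11 ± 0.07 (adjusted p = 0.309, limma). The response of the pair differed by 0.41, with no overlap between groups (exact permutation p = 0.1, the smallest possible).

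The melatonin receptor Mtnr1a could not be compared. Its 3 probes were above background on no array and read between 1.88 and 2.29. Of 7 markers of the pituitary and pars tuberalis, where this receptor is dense, only Lhb was above background on all 6 arrays and 5 were on none.

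With the probe of highest mean signal standing for each gene, Nos1 was higher (0.49, adjusted p = 0.046, limma) and Ryr3 lower (-0.76, adjusted p = 0.015, limma), and no other member was called. Over the whole array 8.6% of genes were higher and 7.56% lower by such a probe. These shares come from the fit over all 34444 kept probes, while the member values were adjusted over 1 probe a gene. In the fit over all kept probes, these probes of Nos1 (adjusted p = 0.047, limma) and Ryr3 (adjusted p = 0.017, limma) were called too. With all kept probes of a gene averaged, Nos1 was again higher (0.66, adjusted p = 0.025, limma), and no such value is given for Ryr3 because its average takes in the probe at background.

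GC content moved with the difference over the array. Of probes with at most 35% GC, 1.74% were called higher and 15.8% lower. Over 35% to 48% GC it was 6.87% and 7.84%, and above 48% it was 20.4% and 1.59%. The kept members fall into these classes as 5, 13 and 3 probes, with 0, 2 and 1 called higher and 1, 3 and 0 called lower, the 1 being the dim Ryr3 probe. Described across probes that share the same 6 arrays, the correlation of GC content with the difference was r = 0.51 (rho = 0.54) over 21 member probes and r = 0.32 (rho = 0.36) over 34444 probes. With the trend on GC content removed, 3 of the 7 calls remained, Nos1 A_55_P2133795, Nos1ap A_55_P2731176 and Ryr3 A_52_P328350. Of the lost calls, Ryr3 A_52_P261858 was then -0.77 (adjusted p = 0.050, just over the threshold, limma) and Adcyap1r1 A_52_P615225 0.49 (adjusted p = 0.057, limma), close to their sizes before. Nos1 A_55_P2073915 shrank to 0.23, as given above, and the dim Ryr3 probe also lost its call (adjusted p = 0.061, limma).

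**Figure D4:**
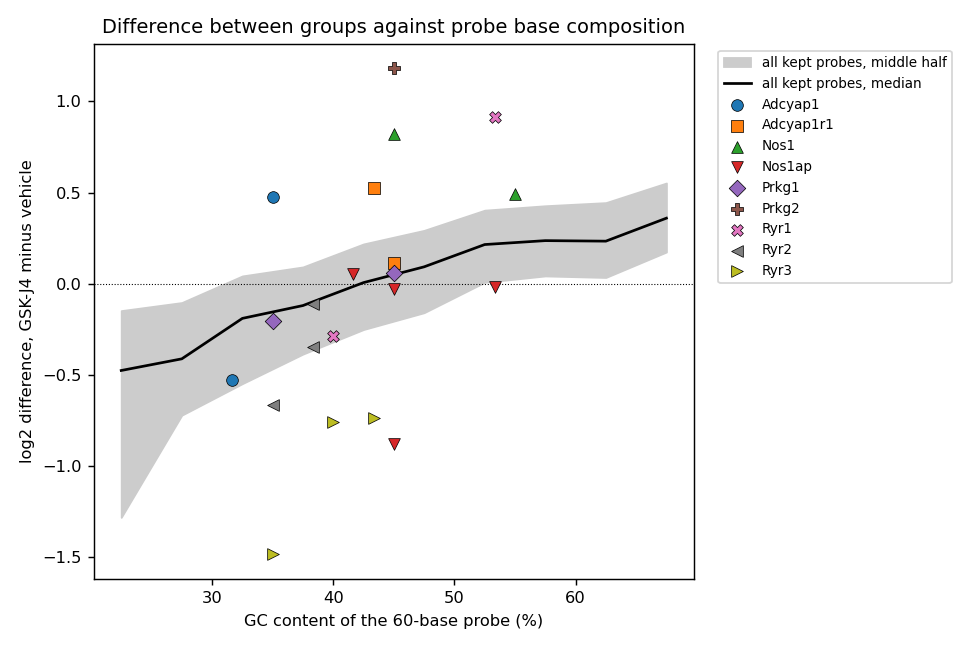
Log2 difference, GSK-J4 minus vehicle (vertical axis), against the GC content in percent of the 60-base probe (horizontal axis). The black line is the median and the grey band the middle 50 percent of all kept probes in each GC class, and each symbol is 1 kept member probe. The line rises from left to right over most of its length. Below the band lie, among others, the Ryr3 symbols, Nos1ap A_55_P2731176 and Ryr2 A_52_P10205, the last kept through the vehicle arrays alone. Above it lie those of Prkg2, Nos1, Ryr1 A_51_P256401, Adcyap1r1 A_52_P615225 and Adcyap1 A_55_P2806781.

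Of 66 other genes of the same pathways, 62 had a kept probe, and by the probe of highest mean signal 8 were higher and 4 lower, against the 8.6% higher and 7.56% lower of all genes. With the GC trend removed 1 was higher and 2 lower, and without any 1 of the vehicle arrays 0 were called either way. In the nitric oxide and cyclic GMP list, 1 of 15 kept genes was higher and 2 lower, with a median difference of 0.07 against 0.04 over all genes. The phosphodiesterase Pde1b, which breaks down cyclic nucleotides when calcium rises, was higher (0.37 ± 0.08, adjusted p = 0.037, limma). Its relative Pde1c was lower (-0.96 ± 0.17, adjusted p = 0.024, limma), as was Gucy1b1, the beta subunit of the nitric oxide receptor (-0.54 ± 0.08, adjusted p = 0.018, limma). The probes of Pde1c and Gucy1b1 have 35% GC and that of Pde1b 55%. By any kept probe, 3 genes of this list had one called higher and 4 one called lower. The share of all genes with any probe so called was not computed. Genes with more probes have more chances, so such counts have no background here.

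In the calcium release list, 4 of 19 kept genes were higher and 0 lower, with a median of -0.02. Casq1, which encodes a calcium store protein, was higher by 0.53 ± 0.13 (adjusted p = 0.048, limma). Its signal was dim, with means of 4.79 on vehicle and 5.32 on GSK-J4 arrays. Fkbp1a, whose product binds ryanodine receptors, was higher by 0.33 ± 0.07 (adjusted p = 0.030, limma). The inositol trisphosphate receptor Itpr3 was also higher (0.33 ± 0.08, adjusted p = 0.042, limma), and so was the calcium sensor Stim1. The GC content of these probes was 50% for Casq1, 71.7% for Fkbp1a, 36.7% for Itpr3 and 43.3% for Stim1. Casq1 is also a gene of skeletal muscle, whose markers are given with Ryr1. By any of their kept probes, 5 genes of this list had a probe called higher and 5 one called lower, again without a share over all genes.

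Of 11 kept relatives and effectors of the PACAP and melatonin receptors, 2 were higher and 0 lower, with a median of 0.13. They were Pde4d, which breaks down cyclic AMP (0.84 ± 0.18, adjusted p = 0.034, limma), and Aanat, an enzyme of melatonin synthesis (0.31 ± 0.08, adjusted p = 0.044, limma), on probes of 45% and 55% GC. By any kept probe, 4 genes of the list had one called higher and 2 one called lower, without a share over all genes beside them. The latter were Pde4d itself and Gnas, and the probes of each were called in both directions. The peptide Vip, a relative of PACAP made in the clock, read 0.13 ± 0.20 (adjusted p = 0.666, limma). Of 5 kept markers of the suprachiasmatic nucleus 1 was called, the peptide gene Nms, higher by 0.57 ± 0.12 (adjusted p = 0.032, limma).

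Of 17 kept genes of light input and light response, 1 was higher and 2 lower, with a median of 0.04. The kinase Mapk3 was higher (0.39 ± 0.07, adjusted p = 0.024, limma), on a probe of 55% GC. The calcium channel Cacna1c (-0.55 ± 0.13, adjusted p = 0.042, limma) and the clock gene Per2 (-0.33 ± 0.08, adjusted p = 0.042, limma) were lower, both on probes of 35% GC. By any kept probe, 1 gene of this list had a probe called higher and 7 had one called lower. With no such share over all genes, this count is not read as a result about the list.

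Without any 1 of the 3 vehicle arrays no member was called, and over the whole array at most 2 probes were called higher and at most 12 lower. Without vehicle replicate 1, which held the choroid plexus signal, the differences were -0.77 on Ryr3 A_52_P328350 (adjusted p = 0.062, limma), -0.86 on Nos1ap A_55_P2731176 (adjusted p = 0.060, limma) and 0.83 on Nos1 A_55_P2133795 (adjusted p = 0.077, limma). Without GSK-J4 replicate 3 these were -0.83, -0.89 and 0.99, with adjusted p-values of 0.027, 0.031 and 0.022 (limma). The 6 called probes above background on all arrays kept their direction under every alternative run for them.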

How the data were processed

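Hypothalamic RNA of 3 vehicle and 3 GSK-J4 mice was labelled with Cy3 and hybridised to Agilent SurePrint G3 mouse arrays, 1 array a mouse. The authors extracted spot intensities with Feature Extraction (10.7.1.1 per the file headers) and deposited these background-corrected intensities, with flags. The log2 values used here, 56745 rows, were deposited as well, and per the methods came from quantile normalization in GeneSpring. Its 6 columns had a median of 5.74 each and correlated with the log2 intensities of their own arrays at 0.999 or above, and 0 columns were left unassigned. The genome build of the probe coordinates is mm9, as in the files, and gene names are those of the array design.

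The deposited log2 values were tested per probe with lmFit and eBayes of limma 3.58.1 (R 4.3.3, data.table version 1.17.8), two-sided and with no covariate, on all 6 arrays. The Benjamini-Hochberg adjustment ran over 34444 probes, those well above background on the 3 arrays of either group. A probe with several spots counted as above background where at least 50% of its spots were. Control spots and outlier spots were left out of flags and intensities, and 0 kept spots were saturated. Where a group's arrays were all at background, only a bound is given. Responses of probes of a gene were compared by exact permutation of 3 arrays against 3, whose smallest p is 0.1, in 17 pairs with no adjustment. Levels of different probes were not compared. The sequence of 1 probe is not reported here.

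The members, the gene lists and the tests were chosen with earlier results of these data known. Array values of a member were given in full where a probe passed an adjusted p of 0.05 or the thresholds of the methods, and for the kept probe of highest mean in each gene. Of the pathway lists, genes past an adjusted p of 0.05 were named, at most 3 in each direction. Stim1 was named beyond that number after its value was seen.

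The script was tested on simulated data, 10 sets of 34444 probes in which 200 were moved by 1 log2 unit. Of these 48.2% were called, and 4.64% of calls were false. The simulated noise was independent between probes, with no slide or GC effect, so these shares need not hold for the calls on the real arrays. The number of arrays limits the precision. Alternatives were another normalization (own quantile, 75th percentile, normexp with an offset of 50), other filters, removal of a lowess trend on GC content (span 0.3), the replicate number as a block, a Welch test, a trended prior and leaving out each array.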

Additional observations from a re-analysis of the deposited data

How the results depend on the processing

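Main counts were 3 member probes higher and 4 lower, 2889 and 2899 of all kept probes, and 8 and 4 pathway genes. Own quantile normalization gave 3 and 4 member probes. The 75th percentile gave 5032 probes higher over the array, with 17 pathway genes higher and 2 lower, and normexp and the trended prior each gave 7 pathway genes lower. Without a filter, 1 member probe, 1793 of all probes and 3 pathway genes were higher, and 2 pathway genes lower. With probes above background on all 6 arrays, 5 member probes were higher and 3 lower, and 3351 and 2797 of all probes. With the GC trend removed, 1 member probe was higher and 2 lower, 1486 of all probes were higher, and 1 pathway gene was higher and 2 lower. The t-test of the methods, Welch's form with Benjamini-Hochberg adjustment, called 0 members and 0 pathway genes, and 56 probes higher and 37 lower of all, which puts the share called higher at 60.2% against 49.9%. At its own thresholds of 1.5-fold and an unadjusted p, it gave 2 member probes higher and 3 lower.

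Leaving out 1 array gave 0 to 1 member probes higher and 0 to 4 lower, 1 to 2076 of all probes higher and 4 to 2481 lower, and 0 to 3 pathway genes higher and 0 to 4 lower. The members past 1.5-fold were then 3 to 5 higher and 3 to 5 lower. Each vehicle array, left out, took away every member call. Without GSK-J4 replicate 1, 0 member probes were higher and 2 lower, without GSK-J4 replicate 2, 1 and 4, and without GSK-J4 replicate 3, 1 and 2.

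Same-numbered arrays of the groups deviated together little (r = 0.007, 0.028 and 0.084), against -0.100 to 0.095 for differently numbered arrays. With 3 arrays a group, this cannot settle whether the arrays were paired. With the replicate number as a block, 0 probes were called at any adjusted p of 0.05, members and pathway genes included, also with the GC trend removed, while 3 member probes were past 1.5-fold higher and 4 lower. The block fit recovered 0% of changed probes in simulation, so its count says nothing of stability.

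The 7 called probes kept their direction in 15 or 16 alternatives each, which for Ryr3 A_51_P519354, kept through the vehicle arrays alone, shows nothing of stability. Still called were Ryr3 A_52_P328350 and Nos1ap A_55_P2731176 in 10, Nos1 A_55_P2133795 in 8, Ryr3 A_52_P261858 in 6, Adcyap1r1 A_52_P615225 and Ryr3 A_51_P519354 in 5, and Nos1 A_55_P2073915 in 3. Prkg2 and Ryr1 A_51_P256401, not called, were called in 3 each.

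Sign changes came on 4 uncalled probes. Nos1ap A_55_P1991199 was 0.23 with the 75th percentile, and -0.10 to 0.025 over the arrays left out. Nos1ap A_66_P134808 was 0.11 with the 75th percentile and 0.095 with normexp, and -0.13 to 0.058 over the arrays left out. Prkg1 A_51_P440210 was -0.018 with the GC trend removed, with or without the block, and -0.051 to 0.18 over the arrays left out. Adcyap1 A_66_P128698 ran from -1.08 to 0.50 over them, the latter without GSK-J4 replicate 3.

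Differences in response between probes of a gene changed sign as follows. With the 75th percentile they were -0.097 (Nos1ap A_51_P517721 less A_55_P1991199), -0.12 (Nos1ap A_66_P134808 less A_55_P1991199) and -0.11 (Ryr3 A_52_P261858 less A_52_P328350). With normexp they were -0.066 (Nos1ap A_51_P517721 less A_66_P134808), -0.30 and -0.018 (Ryr2 A_52_P440709 and A_55_P2737124 less A_52_P10205), and -0.26 and -0.34 (Ryr3 A_52_P261858 and A_52_P328350 less A_51_P519354). Ryr2 A_52_P10205 and Ryr3 A_51_P519354 were at background on all GSK-J4 arrays, so these 4 differences have no exact size and their sign tells nothing. With the GC trend removed they were -0.17 (Nos1ap A_66_P134808 less A_55_P1991199) and -0.045 (Ryr3 A_52_P261858 less A_52_P328350). Over the arrays left out, they were -0.098 to 0.11 (Nos1ap A_66_P134808 less A_55_P1991199), -0.064 to 0.10 (Ryr3 A_52_P261858 less A_52_P328350), -0.014 to 0.20 (Nos1ap A_51_P517721 less A_66_P134808) and -0.076 to 1.60 (Adcyap1 A_55_P2806781 less A_66_P128698, lowest without GSK-J4 replicate 3). The other pairs kept their sign. The cause was not tested.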

Other observations

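GC content is set here beside the response of some pairs of probes of a member. The Nos1ap probes A_55_P2731176 and A_55_P1991199 both have 45% GC and differed in response by 0.85. The pair of Prkg1, with 45% and 35% GC, differed by 0.26 with no overlap between groups (exact permutation p = 0.1, the smallest possible), and by 0.02 with the GC trend removed (exact permutation p = 0.7). The Ryr1 pair differed by 1.20, and by 0.90 with the GC trend removed. The part of GC content in these differences was not tested.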
